A study of Mus musculus with 15 samples.

Results

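The genes described here are 8 mouse genes of folate transport and one-carbon metabolism, taken by symbol from a table of 56748 genes. They are the folate receptors Folr1 and Folr2, the transporters Slc19a1 and Slc46a1, the cytosolic enzymes Mthfd1, Shmt1 and Aldh1l1, and the mitochondrial enzyme Mthfd2. Each symbol matched 1 gene, and all 8 passed the filter on low counts in kidney, where 19593 genes were tested, and in lung, where 19617 were tested.

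The study asked whether neutralizing leptin, a hormone made by fat cells, alters organ fibrosis, and its RNA sequencing compared whole kidney and whole lung of male C57Bl/6 mice labelled WT. There were 15 libraries, 3 in each of 5 groups. In WTK the kidneys came from mice given vehicle, the bicarbonate solution in which folic acid was dissolved, and the labels do not say whether these mice also received an antibody. In IgGK and LepK the mice, 10 to 12 weeks old, received a single intraperitoneal dose of folic acid at 200 mg/kg, which injures the tubules. They then received control IgG (IgGK) or the leptin-neutralizing antibody LepAb (LepK) every other day for 21 days from day 1, and were euthanized at day 28. The methods give the same age and day of euthanasia for mice given vehicle. The antibody dose taken forward after a dose series was 10 mg/kg. In IgGL and LepL the mice, 12 weeks old, received bleomycin into the trachea at 1.5 units/kg, followed by control IgG or LepAb at 10 mg/kg every other day for 14 days, and were euthanized at day 14. No uninjured lung was analysed here, so lung values compare antibody with IgG only.

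Folate enters cells by receptors and by carriers, and its reduced forms carry single carbon units that are used to build purines, thymidylate and methionine. Cytosolic and mitochondrial enzymes run parallel versions of this chemistry, in which serine is the main carbon donor. The proximal tubule of the kidney takes filtered folate back up from the urine through Folr1, and high doses of folic acid are a standard way to injure this epithelium in mice. The vitamin given here is therefore also the substrate of the pathway measured.

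The libraries held 25913969 to 38924788 counted reads, so that 1 read equalled 0.0257 to 0.0386 CPM, the count scaled to a common library total. The study describes the lung libraries as 3 mice per group and the kidney libraries as 3 per group, while the labels give replicate numbers only. For kidney, p-values may therefore measure a spread that is technical. Each value below is a CPM scaled by TMM factors, computed apart for kidney and for lung, unless FPKM, which also divides by gene length, is named. TMM takes most genes as unchanged between libraries, an assumption that was not tested. Without the TMM factors the log2 fold changes of all genes shifted, by a median of 0.44 in IgGK against WTK. The median shift was -0.18 in LepK against IgGK and 0.26 in LepK against WTK. The libraries do not keep the strand, so reads where genes overlap cannot be assigned. In whole-organ RNA, fewer cells of a type and less RNA per cell cannot be told apart.

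Library LepK replicate 2 stood apart by genes typical of hepatocytes, a list of 10 that was chosen after its values were seen. Their summed level was 1313 CPM there, with 20786 reads of albumin and 667 of Mat1a, and 226 to 338 CPM in the other 8 kidney libraries. Of those, IgGK replicate 2 held 2588 reads of albumin and 127 of Mat1a. IgGK replicate 3 held 961 and 46, and IgGK replicate 1 held 70 and 1. Results for LepK are given with and without LepK replicate 2 where they rest on it.

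In the kidney of vehicle-treated mice the levels per length spanned from Folr1, with an FPKM of 156 ± 3.51 (SD, n = 3, as for all values below), to Folr2, with 0.744 ± 0.159. Aldh1l1 was next at 126 ± 4.66 FPKM, followed by Mthfd1 at 52.3 ± 1.47, Slc19a1 at 21.5 ± 0.423, Slc46a1 at 13.9 ± 0.557, Shmt1 at 9.82 ± 1.19 and Mthfd2 at 0.982 ± 0.131. In WTK, 98.6% of the genes tested had a lower FPKM than Folr1 and 98.2% a lower one than Aldh1l1. These are descriptions of level. Mthfd2 and Folr2 lay close to each other at the low end, and their libraries overlapped in FPKM.

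**Figure D1:**
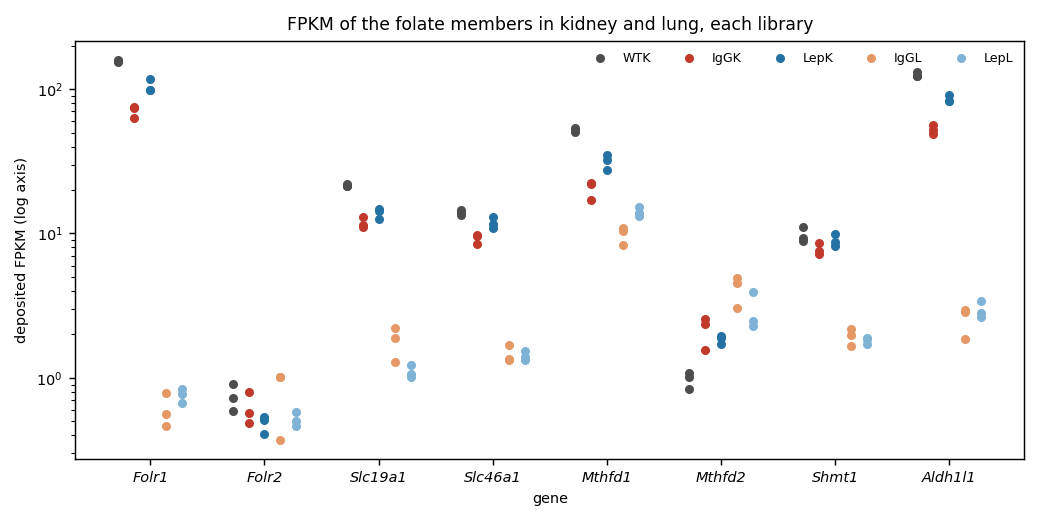
Deposited FPKM (vertical log axis) of each gene (horizontal axis) in every library, coloured by group (3 points each). Folr1 and Aldh1l1 are the highest in kidney, at 70.9 and 52.2 FPKM on average in IgGK, and fall to 0.608 and 2.56 in IgGL, whereas Mthfd2 is higher in IgGL, at 4.17, than in any kidney group.

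Injured kidney and injured lung differed most in Folr1. Its FPKM was 70.9 in IgGK and 0.608 in IgGL, a ratio of 117, and the IgGL libraries held only 48 to 96 reads. Anapc15, which overlaps Folr1 on the other strand, was at 6.13 CPM in IgGL, above Folr1 at 2.04 CPM. Reads of the shared stretch cannot be assigned, and their part in the lung values of Folr1 was not tested. Aldh1l1 was 20.4 times higher in IgGK than in IgGL, Slc19a1 6.56 times, Slc46a1 6.36 times, Shmt1 4 times and Mthfd1 2.07 times. Mthfd2, the mitochondrial dehydrogenase and cyclohydrolase, went the other way, with 4.17 ± 0.98 FPKM in IgGL and 2.15 ± 0.53 in IgGK. Folr2 reached 0.803 ± 0.371 FPKM in IgGL and 0.619 ± 0.158 in IgGK, and its libraries overlapped between all neighbouring groups in order of level. The deposited FPKM carry a scaling that differs between libraries, and organ, injury and day differ together, so these ratios are given without a test.

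To show the sequences beside genes that moved together or apart in kidney, the 250 bases before the annotated start are printed for Mthfd1 and Aldh1l1, which were lower after folic acid, and for Mthfd2, which was higher. They come from RefSeq on GRCm38.p6, where 7 of the 8 genes have an entry and Folr1 has none. Mthfd1 lies at chr12:76254982-76255231 on the plus strand, Aldh1l1 at chr6:90550543-90550792 on the plus strand, and Mthfd2 at chr6:83317605-83317854 on the minus strand. The deposited gene positions, on GRCm39, start at 90463409 for Aldh1l1 and end at 83302890 for Mthfd2. Positions were not converted between the builds, so a window may lie at an inner start of the counted gene. Capitals mark matches, on either strand, to CCAAT and to GGGCGG.
Mthfd1: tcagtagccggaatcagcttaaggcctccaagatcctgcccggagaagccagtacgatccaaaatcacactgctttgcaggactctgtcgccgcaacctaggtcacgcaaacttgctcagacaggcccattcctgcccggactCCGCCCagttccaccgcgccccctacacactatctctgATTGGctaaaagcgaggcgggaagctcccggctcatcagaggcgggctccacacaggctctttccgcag
Aldh1l1: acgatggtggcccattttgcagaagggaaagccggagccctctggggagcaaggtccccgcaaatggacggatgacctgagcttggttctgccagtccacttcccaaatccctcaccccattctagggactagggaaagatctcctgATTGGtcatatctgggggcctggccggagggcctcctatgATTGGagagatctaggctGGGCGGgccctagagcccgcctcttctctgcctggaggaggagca
Mthfd2: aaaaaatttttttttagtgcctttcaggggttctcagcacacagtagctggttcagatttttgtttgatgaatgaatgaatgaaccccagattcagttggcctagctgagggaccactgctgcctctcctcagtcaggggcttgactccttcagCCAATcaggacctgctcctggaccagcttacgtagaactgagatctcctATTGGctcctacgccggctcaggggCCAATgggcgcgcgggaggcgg
The CCAAT letters matched once in Mthfd1, at 2 places in Aldh1l1 and at 3 in Mthfd2, and 33.8% of all 32851 windows of this length hold at least 1 match. The GGGCGG letters matched once in Mthfd1, once in Aldh1l1 and nowhere in Mthfd2, against 32.7% of all windows. The E-box CACGTG (6.02% of windows) and TGATGNAA, the core of the amino acid response element (3.45%), had no match in these 3. These matches describe the letters of the windows only.

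The first comparison, IgGK against WTK, asked what folic acid injury did to these genes 28 days on. Of the 8 genes, 5 were called lower (Folr1, Slc19a1, Slc46a1, Mthfd1 and Aldh1l1) and 1 was called higher (Mthfd2). A call needed a Benjamini-Hochberg adjusted p under 0.05 in edgeR's quasi-likelihood test and an absolute log2 fold change over 0.5, and 15.6% of all genes tested were called lower, 21.7% higher and 37.3% either. The median log2 fold change of the 8 was -0.69, beside 0.04 over all genes tested. In 7 of the 8 the IgGK libraries did not overlap the WTK libraries, which held for 62.6% of all genes. With libraries scaled by total reads alone, 4 of the 8 were called, since Slc19a1 (-0.39) and Slc46a1 (-0.11) no longer passed.

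Among the routes of entry, Folr1 encodes the receptor that binds folate with high affinity at the apical face of the proximal tubule. It lies at chromosome 7, 101507538 to 101519995, on the minus strand (positions from the table, which the labels place on GRCm39). Its levels were 444, 436 and 423 CPM in WTK and 212, 179 and 216 CPM in IgGK. The groups were well apart, with 216 CPM in the highest IgGK library and 423 CPM in the lowest WTK library. The log2 fold change was -1.10 ± 0.09 (SE, edgeR adjusted p 7.01e-07), or 2.15-fold lower. Anapc15 overlaps 56.8% of the span of Folr1 on the other strand, but held only 129 to 249 reads per library, against 6252 to 11723 of Folr1 in kidney.

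Slc19a1, the reduced folate carrier, exchanges reduced folates for organic anions. It was at 124, 120 and 119 CPM in WTK and at 74.5, 63.5 and 65.9 CPM in IgGK, without overlap. It fell by 0.83 ± 0.08 on the log2 scale (edgeR adjusted p 2.17e-06). Col18a1, a collagen gene on the opposite strand, shares 8825 bases with it, 30.7% of its span, and moved the other way with a log2 fold change of 1.71 (edgeR adjusted p 4.03e-08). Reads of the shared stretch cannot be assigned, and their part in the result was not tested.

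Slc46a1, the proton-coupled folate transporter, which works best at acidic pH, was at 52.2, 53.8 and 49.6 CPM in WTK and at 36.6, 32.2 and 37.7 CPM in IgGK. The groups did not overlap, and the fall of 0.55 ± 0.08 on the log2 scale (edgeR adjusted p 0.000103) was the smallest of those called. Without IgGK replicate 2 the log2 fold change was -0.47, under the threshold. Folr2, a folate receptor known from macrophages, held 28 to 53 reads per library in these 2 groups and was at 1.39 ± 0.295 CPM in WTK and 1.19 ± 0.307 in IgGK. Its libraries overlapped, and with a log2 fold change of -0.23 and a 95% interval of -0.98 to 0.53 its direction was not resolved. The summed level of 12 macrophage markers rose from 186 to 208 CPM in WTK to 818 to 1048 CPM in IgGK. Folr2 lies 1136 bases from Folr1, in the same orientation.

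**Figure D2:**
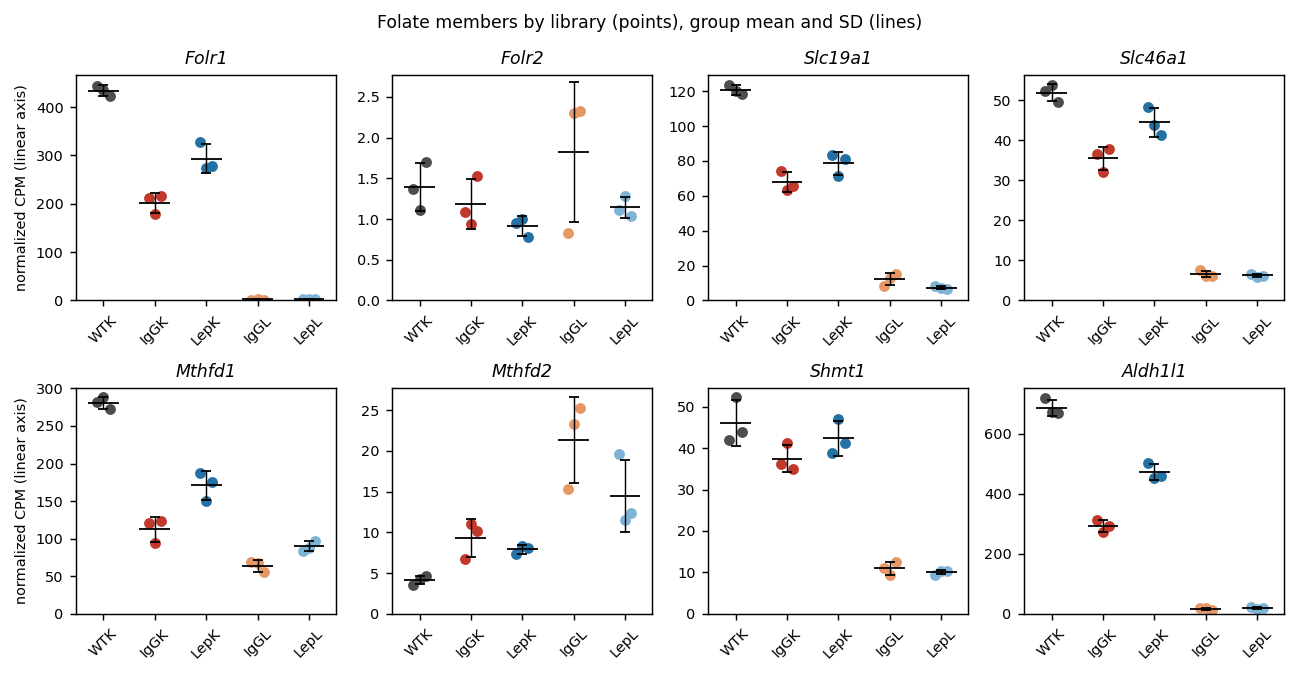
Normalized CPM (vertical linear axis from 0) of each of the 8 genes in every library (points) by group, with the mean (long line) and SD (bar), kidney and lung scaled apart. Folr1, Mthfd1 and Aldh1l1 step down from WTK to IgGK and lie between in LepK, for Aldh1l1 at 686, 292 and 472 CPM on average, whereas Mthfd2 is lowest in WTK at 4.14 CPM.

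Mthfd1 is the 3-function enzyme of the cytosol that interconverts formyl, methenyl and methylene forms of tetrahydrofolate. It was at 282, 289 and 272 CPM in WTK and at 120, 93.5 and 124 CPM in IgGK. The groups did not overlap, and IgGK replicate 2 was the lowest. The fold change was the largest fall of the 8 at -1.32 ± 0.11 (log2, edgeR adjusted p 7.51e-07), a 2.49-fold reduction. Aldh1l1, which removes the formyl group from 10-formyltetrahydrofolate as carbon dioxide, was at 718, 673 and 669 CPM in WTK and at 314, 272 and 292 CPM in IgGK. The libraries did not overlap and the log2 fold change was -1.23 ± 0.07 (edgeR adjusted p 9.1e-08).

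Shmt1, the cytosolic hydroxymethyltransferase that passes a carbon from serine to tetrahydrofolate, was at 42.1, 52.4 and 43.9 CPM in WTK and at 36.3, 41.2 and 35.0 CPM in IgGK. Its highest IgGK library came within 1 CPM of its lowest WTK library. The log2 fold change of -0.30 ± 0.10 passed the adjusted p (0.0261, edgeR) but not the fold threshold, and it turned to 0.14 when libraries were scaled by total reads alone. Mthfd2 is the mitochondrial dehydrogenase that is high in growing tissue and low in most resting adult tissue. It was at 3.53, 4.30 and 4.58 CPM in WTK and at 6.69, 11.1 and 10.2 CPM in IgGK. All 3 IgGK libraries exceeded all 3 WTK libraries, and the log2 fold change was 1.17 ± 0.20 (edgeR adjusted p 0.000278), from 85 to 127 reads in WTK to 203 to 387 in IgGK.

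The falls moved together with the markers of the cells in which Folr1 works. All 10 proximal tubule markers were called lower in IgGK, with a median log2 fold change of -1.76, and their summed level went from 59180 to 61400 CPM in WTK to 13830 to 21980 CPM in IgGK. The median sum in IgGK was 35.7% of that in WTK, where the sum over the 8 folate genes was 48%. Of 8 markers of injured tubule 7 were called higher, and of 10 cell cycle genes 8. Over all genes 15.6% were called lower and 21.7% higher. The part of these markers in the changes of the folate genes was not tested.

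The second comparison, LepK against IgGK, asked what the antibody did in injured kidney. Here 3 of the 8 genes were called higher (Folr1, Mthfd1 and Aldh1l1) and 0 lower, beside 4.38% of all genes called higher, 5.99% lower and 10.4% either. Their rises were smaller than the falls after folic acid, and all 3 remained below WTK. At an unadjusted p under 0.05, 5 of the 8 passed, as did 6441 of all 19593 genes. In 4 of the 8 the groups did not overlap, as in 37.4% of all genes. Scaling by total reads alone left Aldh1l1 called (0.51), with Folr1 at 0.36 and Mthfd1 at 0.42. Both comparisons use the same IgGK libraries, so that a high or low IgGK value enters both with opposite sign.

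Folr1 was at 328, 274 and 278 CPM in LepK and at 212, 179 and 216 CPM in IgGK. The lowest LepK library lay above the highest IgGK library, and the log2 fold change was 0.54 ± 0.09 (edgeR adjusted p 0.00158), close to the threshold of 0.5. Without IgGK replicate 2 it was 0.46 and without LepK replicate 1 it was 0.45, both under the threshold. Without LepK replicate 2 it was 0.59.

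Mthfd1 was at 188, 150 and 175 CPM in LepK and at 120, 93.5 and 124 CPM in IgGK. The groups did not overlap, with a log2 fold change of 0.60 ± 0.11 (edgeR adjusted p 0.00235). Without IgGK replicate 2 it was 0.49, under the threshold, and without LepK replicate 2 it was 0.69. Aldh1l1 was at 503, 452 and 460 CPM in LepK and at 314, 272 and 292 CPM in IgGK. Its rise of 0.69 ± 0.07 (edgeR adjusted p 0.000163) was the largest of the 8 and was 0.72 without LepK replicate 2, in which Aldh1l1 was the lowest of the 3.

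Slc46a1 was at 48.3, 43.7 and 41.3 CPM in LepK, above all 3 IgGK libraries. Its log2 fold change of 0.33 ± 0.08 passed the adjusted p (0.0148, edgeR) but not the fold threshold. Slc19a1 was at 83.4, 71.3 and 81.0 CPM, and its lowest library fell inside the range of IgGK. Its log2 fold change was 0.21 ± 0.08 (edgeR adjusted p 0.0799), and Col18a1 on the other strand was at -0.49. Shmt1 was at 38.8, 47.1 and 41.3 CPM, also overlapping IgGK, with a log2 fold change of 0.18 and a 95% interval of -0.04 to 0.40. Mthfd2 was at 7.31, 8.28 and 8.12 CPM in LepK, within the range of IgGK, with a log2 fold change of -0.24 and an interval of -0.65 to 0.18. Folr2 was at 0.955, 1.01 and 0.775 CPM, with 21 to 30 reads, and its interval of -1.14 to 0.39 spans a fall as well as a rise.

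The markers moved with this comparison too. Of the 10 proximal tubule markers 9 were called higher in LepK than in IgGK, with a sum of 30630 to 42030 CPM in LepK. The macrophage sum was 387 to 516 CPM, and 9 of the 11 macrophage markers tested were called lower. Of 7 markers of distal nephron and collecting duct 4 were called higher. Over all genes 4.38% were called higher and 5.99% lower. The part of these markers in the changes of the folate genes was not tested.

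Against WTK, the LepK kidneys still had 4 genes called lower (Folr1 at -0.57, Slc19a1 at -0.62, Mthfd1 at -0.72 and Aldh1l1 at -0.54, log2) and 1 called higher (Mthfd2 at 0.93). This compares with 7.3% of all genes called lower, 15.2% higher and 22.5% either. The edgeR adjusted p of the 5 lay between 7.92e-05 and 0.0028. Slc46a1 was at -0.22 with an edgeR adjusted p of 0.0487, under the fold threshold, and Shmt1 at -0.12 with overlapping libraries. Groups did not overlap in 7 of the 8 genes, against 50.2% of all genes, the exception being Shmt1. Scaling by total reads alone left 1 call, that of Mthfd2 at 1.19, and turned Slc46a1 to 0.04.

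**Figure D3:**
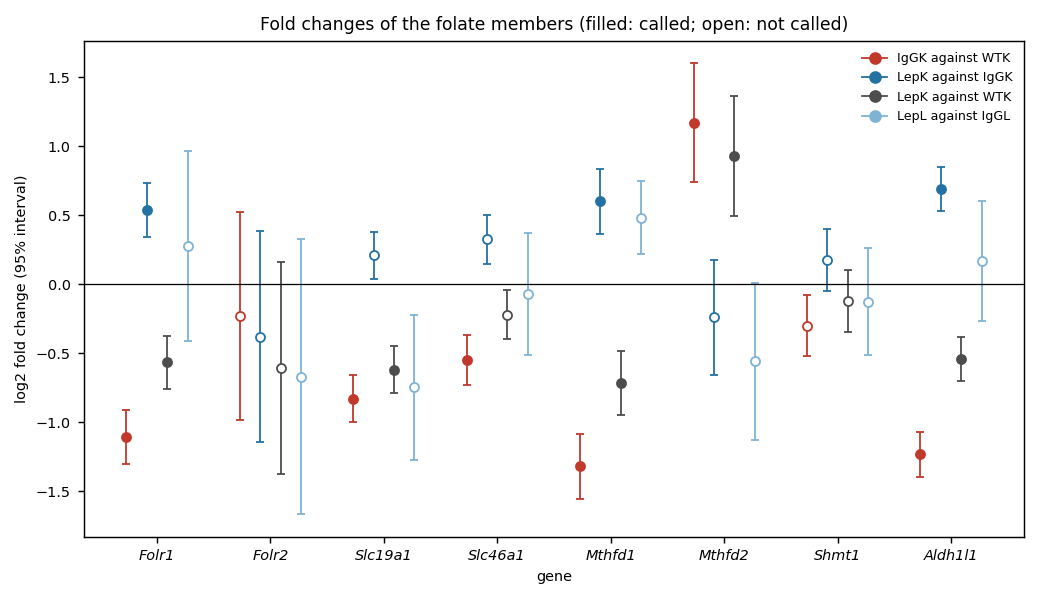
Log2 fold change (vertical axis, with its 95% interval) of each gene (horizontal axis) in 4 comparisons by colour, filled where called and open where not. In kidney the red points of IgGK against WTK lie below 0 except for Mthfd2 at 1.17 (Folr2 and Shmt1 turn positive when scaled by total reads alone), the blue points of LepK against IgGK lie above 0 except for Folr2 and Mthfd2, and all lung points are open.

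In lung, LepL against IgGL, 0 of the 8 genes were called by edgeR, 2 had an unadjusted p under 0.05 (Mthfd1 at 0.0026 and Slc19a1 at 0.0108), and DESeq2 called 1, Slc19a1. Of all 19617 genes tested 1.78% were called higher, 2.36% lower and 4.14% either, and 5357 had an unadjusted p under 0.05. Mthfd1 was at 69.5, 67.8 and 55.0 CPM in IgGL and at 83.8, 88.2 and 96.8 CPM in LepL. The groups did not overlap, as in 33.3% of all genes, and the log2 fold change was 0.48 ± 0.12 (edgeR adjusted p 0.0522).

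Slc19a1 was at 8.53, 12.9 and 15.3 CPM in IgGL and at 8.13, 7.07 and 6.68 CPM in LepL, also without overlap. Its log2 fold change was -0.75 ± 0.23 (edgeR adjusted p 0.0868), and DESeq2 gave an adjusted p of 0.0246 for a value of -0.74. Col18a1 was called lower there, at -0.99 (edgeR adjusted p 0.0327), so in lung the overlapping gene moved the same way. Without IgGL replicate 1 edgeR called 3 of the 8 genes, with Slc19a1 at -0.95, Mthfd2 at -0.75 and Mthfd1 at 0.54.

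Mthfd2 was at 15.3, 23.4 and 25.3 CPM in IgGL and at 19.6, 11.5 and 12.4 CPM in LepL, where 1 LepL library lay inside the range of IgGL. The log2 fold change was -0.56 with an interval of -1.13 to 0.01. Folr1 (0.28), Folr2 (-0.67), Slc46a1 (-0.07), Shmt1 (-0.13) and Aldh1l1 (0.17, all log2) overlapped between the groups. The sum of the 12 macrophage markers was 1952 to 2668 CPM in IgGL and 1133 to 1536 CPM in LepL, and that of 8 alveolar type 2 markers rose from 7128 to 12820 CPM to 18440 to 24740 CPM. The proximal tubule sum was 1.43 to 5.52 CPM over the 6 lung libraries, at or near 0 for defining genes such as Slc34a1 and Slc22a6.

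Whether the antibody comparison differed between organs was tested directly as LepK minus IgGK less LepL minus IgGL, in 12 libraries of injured organs. Only Slc19a1 passed among the 8, with a difference of 0.99 ± 0.24 on the log2 scale (edgeR adjusted p 0.0294), and 7.12% of 21488 genes did. It was not past the threshold when any 1 of 8 of the 12 libraries was left out, with the replicate number as a block (0.98, edgeR adjusted p 0.0503) or when scaled by total reads alone (0.73, edgeR adjusted p 0.0525). The mean of Slc19a1 was higher in LepK than in IgGK and lower in LepL than in IgGL. Aldh1l1 (0.55, edgeR adjusted p 0.119) and Slc46a1 (0.43, edgeR adjusted p 0.134) had intervals above 0 before adjustment and did not pass. Without IgGL replicate 3 Aldh1l1 passed (0.70, edgeR adjusted p 0.0262) and Slc19a1 did not (0.77, edgeR adjusted p 0.0529). For Mthfd1 the difference was 0.15 with an interval of -0.25 to 0.55.

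Single pairs of a cytosolic and a mitochondrial enzyme were followed by ratios of FPKM within a library, in which the scaling of the library cancels. The pairs were chosen after the values were seen. Mthfd1 over Mthfd2 was 62.6, 52.6 and 46.7 in WTK and 14.1, 6.64 and 9.54 in IgGK, without overlap. In LepK it was 20.2, 14.2 and 16.9, each above the highest IgGK library. The mean log2 difference was -2.48 for IgGK against WTK and 0.81 for LepK against IgGK, and a 2-sided exact permutation test gave p = 0.1 for both, the smallest p that 3 against 3 allows (adjusted p 0.123 over 16 tests).

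Aldh1l1 over its mitochondrial relative Aldh1l2 moved alike, from 1199 ± 402 in WTK to 200 ± 50.6 in IgGK and 450 ± 100 in LepK. Aldh1l2 held only 19 to 38 reads per WTK library, so the WTK ratio is imprecise. Shmt1 over Shmt2 moved the opposite way, from 0.0965 ± 0.00999 in WTK to 0.217 ± 0.0621 in IgGK. Its LepK value of 0.145 ± 0.0363 overlapped IgGK (exact permutation p 0.2). Shmt2, the main mitochondrial serine hydroxymethyltransferase, fell by 1.42 on the log2 scale (edgeR adjusted p 1.53e-06), more than Shmt1. Mthfd1l and Aldh1l2 were called higher, as was Mthfd2, whereas the serine carrier Sfxn1 and the mitochondrial folate carrier Slc25a32 (-0.54) were called lower, as was Shmt2. Mthfd2l, a further gene of the mitochondrial list, was not called in IgGK against WTK (-0.17, edgeR adjusted p 0.213). It was at 1.75 ± 0.144 FPKM in WTK, above Mthfd2 at 0.982 ± 0.131. No ratio to Mthfd2l was computed, so Mthfd1 over Mthfd2 leaves it out.

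**Figure D4:**
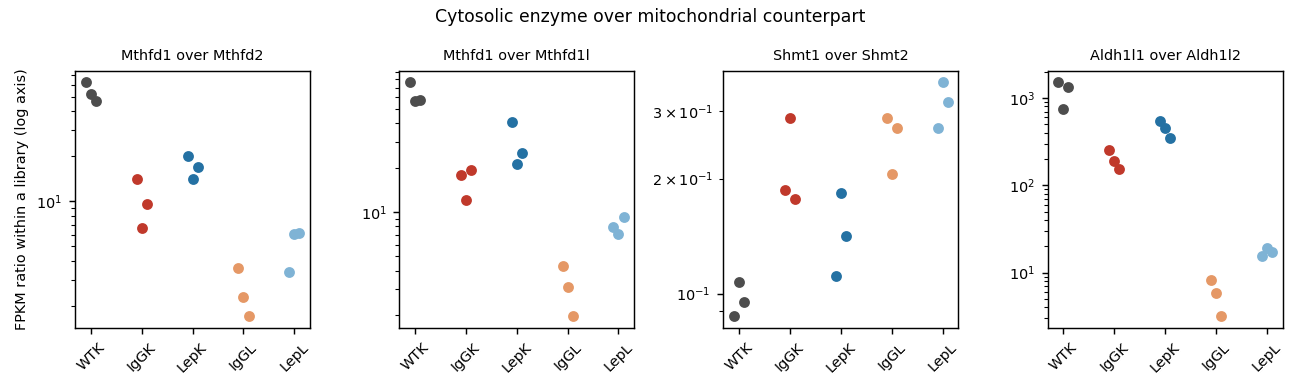
Ratio of FPKM of a cytosolic enzyme to its mitochondrial counterpart within each library (vertical log axis) by group. Mthfd1 over Mthfd2 falls from 54.0 in WTK to 10.1 in IgGK on average, while Shmt1 over Shmt2 goes from 0.0965 to 0.217.

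In lung Mthfd1 over Mthfd2 was 2.52 ± 0.952 in IgGL and 5.17 ± 1.57 in LepL, with overlapping libraries. Mthfd1 over Mthfd1l, the mitochondrial formate-releasing enzyme, was 3.13 ± 1.18 in IgGL and 8.12 ± 1.08 in LepL, without overlap. Aldh1l1 over Aldh1l2 was 5.74 ± 2.5 and 17.3 ± 1.94, also without overlap. Shmt1 over Shmt2 was 0.255 ± 0.0437 and 0.316 ± 0.0427, with overlapping libraries. The exact permutation p was 0.2, 0.1, 0.1 and 0.2 for the 4 pairs in this order.

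The rest of the pathway was described by 53 further genes in 8 lists. In IgGK against WTK 28 were called lower and 6 higher, with a median log2 fold change of -0.63, and in LepK against IgGK 13 were called higher and 1 lower, with a median of 0.30. Over all genes tested the medians were 0.04 and -0.01. In IgGK against WTK 15.6% of all genes were called lower and 21.7% higher. In LepK against IgGK 4.38% were called higher and 5.99% lower. The counts of each list below are to be read beside these shares. Against WTK, LepK had 19 of the 53 lower and 5 higher, beside 7.3% of all genes lower and 15.2% higher. The balance of the 53 turned to 5 lower and 8 higher when libraries were scaled by total reads alone.

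Of 11 genes of folate uptake, retention and export, 7 were called lower after folic acid and 3 higher. Lrp2 (megalin), an endocytic receptor of the proximal tubule, fell by 1.53, and the export pump Abcc3 rose by 2.74. With the antibody Lrp2 was higher at 0.56, Amn, which anchors cubilin at the membrane, was higher at 0.51 and Abcc3 was lower at -0.74 (edgeR adjusted p 0.0101, 0.000789 and 0.00517). The calls of Lrp2 and Amn were lost on leaving out replicate 2 of IgGK (0.45 and 0.44) or replicate 1 of LepK (0.41 and 0.499, just under the threshold), and when scaled by total reads alone (0.38 and 0.33).

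Of 7 genes of the cytosolic folate cycle, 2 were called lower in IgGK and 2 higher in LepK against IgGK, among them in both cases Ftcd, which takes carbon from histidine. Ftcd stood at 40.1 ± 4.69 CPM (WTK), 15.1 ± 2.49 (IgGK) and 37.9 ± 1.75 (LepK). Between LepK and IgGK it differed by 1.32 (log2, edgeR adjusted p 6.88e-05), or 1.36 without LepK replicate 2. Of 6 mitochondrial genes 2 were called higher (Aldh1l2 at 1.27 and Mthfd1l at 0.63) and 2 lower in IgGK, and Shmt2 was higher in LepK than in IgGK at 0.75.

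All 4 genes of the glycine cleavage system were called lower in IgGK, the largest fall being that of Gcsh at -0.97, and none of the 4 was called in LepK against IgGK by edgeR. Phgdh, which commits glycolytic carbon to serine, was the 1 of 3 serine synthesis genes called, at 1.37 in IgGK (edgeR adjusted p 2.31e-06), from 7.48 ± 0.584 to 19.3 ± 2.08 CPM. Of 7 genes of choline and betaine oxidation 6 were called lower in IgGK, led by Dmgdh at -1.54, and 4 were called higher in LepK (Dmgdh at 0.98, Bhmt2 at 0.81, Pipox at 0.67 and Aldh7a1 at 0.63). Scaled by total reads alone, Pipox (0.49) and Aldh7a1 (0.44) were under the fold threshold.

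Of 9 genes of the methionine cycle and transsulfuration 6 were called lower in IgGK, led by Cbs at -1.81, and 4 were called higher in LepK against IgGK. These were Gnmt (1.32), Cbs (0.97), Ahcy (0.82) and Cth (0.73). Gnmt was 1.13 without LepK replicate 2. Mat1a, at 7.07 in LepK against WTK, was called from that library, with 667 reads there and at most 5 in each of the other LepK libraries. Of 6 genes of purine synthesis Paics was called lower in IgGK at -0.59, a call lost when scaled by total reads alone (-0.15, edgeR adjusted p 0.0646), and 0 were called in LepK against IgGK by edgeR.

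In lung 4 of the 47 pathway genes tested were called, all lower in LepL: Amn at -2.37, Aldh1l2 at -1.50, Mthfd1l at -0.98 and Sardh at -0.83 (edgeR adjusted p 0.0444, 0.0386, 0.0398 and 0.0327). Of all genes tested in lung 2.36% were called lower and 1.78% higher. Amn went from 2.85 ± 1.54 to 0.553 ± 0.199 CPM, both low levels. With the replicate number as a block none of the 4 was called by edgeR (adjusted p 0.0768 to 0.0977). Of all genes called in LepL against IgGL, 0 were left by edgeR when replicate 2 of IgGL (3689 genes at an unadjusted p under 0.05), replicate 2 of LepL (4069 genes) or replicate 3 of LepL (3401 genes) was removed.

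**Figure D5:**
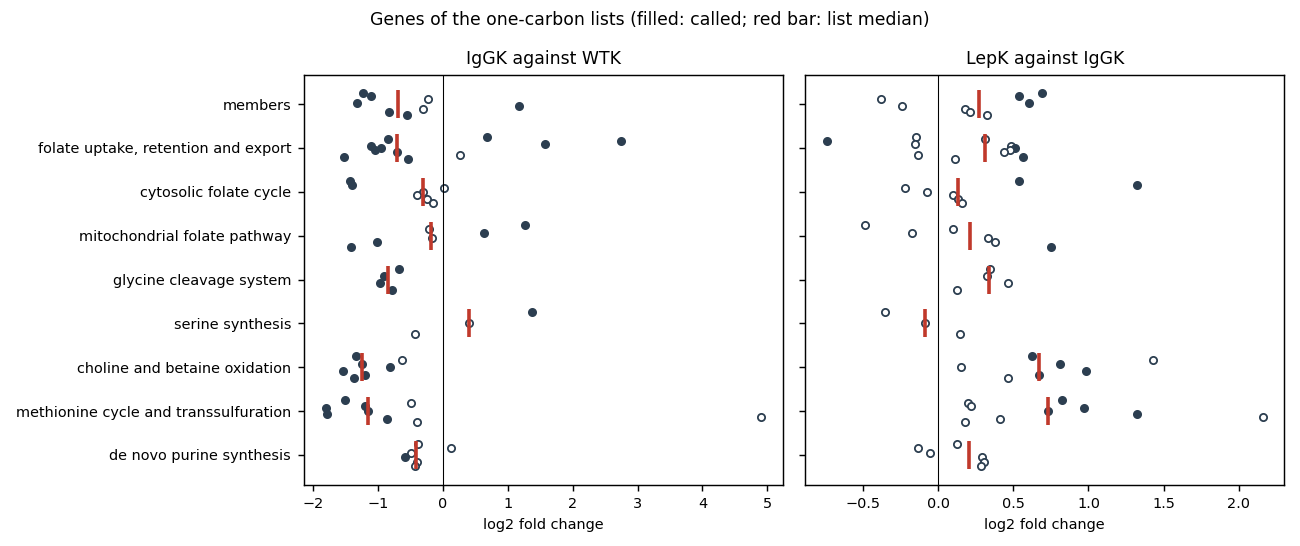
Log2 fold change (horizontal axis) of every gene of 9 lists (vertical axis) in IgGK against WTK (left) and LepK against IgGK (right), filled where called, with the list median as a red bar. Left, the methionine list has a median of -1.16 and the serine list one of 0.40; right, the choline and methionine lists have the highest medians, 0.67 and 0.73, and the open point at 2.16 is Mat1a.

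The genes most like each folate gene over the 9 kidney libraries were taken by Pearson r of log2 CPM, as a description. Phyh, Ptges2 and Upb1 were closest to Folr1, Cmbl, Miox and Hgd to Aldh1l1, and Tpi1, Slc37a4 and Cyp2e1 to Mthfd1, with r of 0.997 to 0.999. B3galt5, Nadsyn1 and Pam were closest to Slc19a1 (0.995 to 0.998), Mettl26, Preb and Slc22a12 to Slc46a1 (0.992 to 0.994), and Cxcr3, Ago4 and Nt5c to Mthfd2 (0.98 to 0.986). As many as 1610 of 15758 genes had an r over 0.95 with Folr1, so a high r singles out no gene, and the libraries share their group differences. Among the members, r with Folr1 was 0.994 for Mthfd1, 0.989 for Aldh1l1 and -0.895 for Mthfd2. Shmt1 and Folr2 followed the group order less, with r of 0.591 and 0.344 to Folr1. For Folr2, Dusp3 was the closest gene at 0.92, and for Shmt1, Gon7 at 0.969.

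Over the 6 lung libraries, which also share their group difference, Adam12, Copb2 and Lamtor1 were closest to Slc19a1 (r 0.997 to 0.999) and Ppm1b, Pccb and Ociad2 to Mthfd1 (0.998 to 1). Gm43412, Ttc19 and Rnaseh2b were closest to Mthfd2 (0.994 to 0.997), Ccdc51, Atf7 and Bcs1l to Aldh1l1 (0.993 to 0.995) and Taf11, Gm16418 and Ndufaf6 to Shmt1 (0.971 to 0.979). Dnajc3, Cyld and Hmcn1 were closest to Folr1 (0.981 to 0.986), Smim36, Spag9 and Ndufs3 to Folr2 (0.985 to 0.988), and Plcg2, Vps52 and Zfp318 to Slc46a1 (0.977 to 0.989). All were picked as the closest of 16036 genes over only 6 libraries, so here too a high r singles out no gene.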

How the data were processed

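Kidney (9) and lung (6) libraries, 3 in each of 5 groups, were assigned by their titles and treatment labels. Libraries were poly(A) selected and non-directional, per the labels, and sequenced by Novogene. The counts per gene are as deposited, whole reads without normalization, and the FPKM were made by the authors from them, with a scaling that differs between libraries. GRCm39 (mm39), DESeq2 and DESeq are named in the submitters' processing notes, and the aligner and counter are not given in the sources used here. The table also holds gene positions and length (other), and the authors' group means, log2 fold changes, p-values and adjusted p-values, which were not used.

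Counts were filtered with filterByExpr (minimum count 10, minimum total 15), scaled by TMM and fitted by quasi-likelihood in edgeR 4.0.16 (limma 3.58.1, R 4.3.3), 9 kidney libraries in 1 fit and 6 lung libraries in another, with group as the only term and Benjamini-Hochberg adjustment over all genes tested. Calls needed an adjusted p below 0.05 together with a log2 fold change beyond 0.5 in either direction. Standard errors were taken as the log2 fold change divided by the root of F. The difference between organs was 1 contrast over 12 libraries. The procedure was run on simulated kidney counts in which 200 of 19239 genes were changed, equally up and down, and 98% of these were called. With so few and balanced changes the simulation cannot speak to the assumption of TMM. The alternatives tried were DESeq2 1.42.0, scaling by RLE, by upper quartile or by library size, no filter, a mean of at least 1 CPM, the replicate number as a block, only the 2 groups compared, no fold threshold and each library left out in turn.

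The 8 genes, the lists and the tests were chosen with earlier results of these data known. All 8 genes are named throughout. Of the other lists, the called gene with the largest rise and fall in each of 3 comparisons is named, every called gene in the antibody comparisons, and the 3 genes most like each folate gene by Pearson r among genes with a mean of at least 1 CPM. Mat1a, Col18a1, Anapc15, Sfxn1, Mthfd2l, Cubn, Abcg2, Fpgs and the compartment pairs were named after their values were seen. Intervals are 95% intervals of the fit. The values of 1 gene of the lists are not reported here.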

Additional observations from a re-analysis of the deposited data

Results flagged for a closer look

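Whether the antibody comparison differed between kidney and lung was judged by edgeR's test of the difference at an adjusted p under 0.05. It differed for 1 of the 8 folate genes and 12 of the 53 other pathway genes, all with a positive difference. Of all 21488 genes tested 7.12% differed, 754 with a positive and 777 with a negative difference. With 1 library left out at a time, 5 to 20 of the other pathway genes and 0 to 1 of the folate genes passed. For Slc19a1 the difference, LepK against IgGK less LepL against IgGL, was 0.986 on the log2 scale. It was 2.94 for Amn, 1.21 for Shmt2, 1.33 for Sardh, 1.36 for Gnmt and 1.57 for Ahcy. Cubn (1.19), Abcg2 (0.87), Sfxn1 (0.81), Gcsh (0.79) and Fpgs (0.76) also passed, and not every gene that passed is named. For Ftcd it was 5.16, a fitted value that rests on 0 to 5 reads per LepL library and 10 to 69 per IgGL library and depends on the prior count. Organ, injury, day and antibody schedule differ together between the 2 comparisons, so their parts cannot be told apart.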

How the results depend on the processing

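The labels do not say that replicate numbers pair the libraries, and the main fits did not pair them. Same-numbered libraries deviated together with correlations of -0.0487 to 0.227 in kidney and -0.0968 to 0.116 in lung. For differently numbered libraries these were -0.256 to 0.0762 and -0.102 to 0.157. Between IgGK and LepK the same-numbered values were 0.227, 0.215 and -0.0487 for replicates 1, 2 and 3. Whether the first 2 of these reflect a shared structure was not tested. With the number as a block, the kidney counts for the 8 genes stayed at 6, 3 and 5, while 0 of the 8 differed between organs (1 without the block), 1006 of all genes did (1531 without), and in lung 4 of all genes (812 without) and 0 pathway genes (4 without) were called.

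Library-size scaling left 1 of the 8 genes called in LepK against IgGK, 1 in LepK against WTK, 0 differing between organs, and 13 pathway genes in LepK against WTK, 8 higher and 5 lower (24 with TMM, 5 higher and 19 lower). Under it the calls over all genes split into 7803 higher and 1178 lower in IgGK against WTK (4253 and 3057 with TMM), 408 and 2185 in LepK against IgGK (858 and 1174), 4782 and 512 in LepK against WTK (2984 and 1431), and 249 and 1968 between organs (754 and 777). It turned the sign of Folr2 (0.21) and Shmt1 (0.14) in IgGK against WTK, Shmt1 in LepK against IgGK (-0.000398) and in LepK against WTK (0.14), Slc46a1 in LepK against WTK (0.037) and Mthfd1 between organs (-0.099).

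In lung, where edgeR with TMM called 0 of the 8 genes, Slc19a1 was called lower with DESeq2 (-0.74) and without a filter (-0.73). With upper-quartile scaling the 1 gene called was Mthfd1, higher at 0.52 (edgeR adjusted p 0.048). DESeq2 called 2350 of all genes and 7 pathway genes there, and 2688 and 10 were called without a filter. Without a fold threshold 4025 genes (29 of the pathway) were called in LepK against IgGK and 7569 (38) in LepK against WTK.

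Leaving out 1 library at a time gave 5 to 6 of the 8 genes in IgGK against WTK (5 without IgGK replicate 2, Slc46a1 being lost). In LepK against IgGK it gave 1 to 3 (1 without IgGK replicate 2). It gave 0 to 3 in lung (3 without IgGL replicate 1) and 0 to 1 between organs (Slc19a1, or Aldh1l1 without IgGL replicate 3). Over all genes it gave 1303 to 2260 in LepK against IgGK (2032 with all libraries), 0 to 3539 in lung and 352 to 3763 between organs, and over the pathway genes 0 to 16 in lung and 5 to 20 between organs. In lung Aldh1l1 ranged from -0.0077 to 0.27 and Slc46a1 from -0.13 to 0.036. The cause of these shifts was not tested. Folr2 held only 21 to 83 reads per library.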
